A study of Mus musculus with 79 samples.

Results

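The comparison of PER2 MKO muscle with PER2 CTRL muscle at ZT0 rests on 7 of the 79 libraries of a mouse RNA-seq series. The label MKO names a knockout made in muscle. Zeitgeber time (ZT) counts hours after lights on, so that ZT0 is the start of the light phase. The 7 libraries were chosen by their labels, 4 of genotype PER2 MKO and 3 of genotype WT (PER2 CTRL), and all 12952 genes of the ZT0 table were used. Tables of the same kind for PER2 MKO and PER2 CTRL at ZT4, ZT8, ZT12, ZT16 and ZT20, with 7 libraries each (8 at ZT20), show what was particular to ZT0. A separate knockout, RORA MKO (3 libraries) with its own CTRL mice of genotype WT (3 libraries), was compared at ZT0 as well. Per the design text, each time point and genotype had 3 to 4 mice. The labels give neither age nor sex, nor which muscle, which Cre driver or which floxed allele was used. Other differences between MKO and CTRL mice therefore cannot be told apart from the loss of PER2.

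PER2 is a core repressor of the circadian clock: with the cryptochromes it holds back CLOCK and BMAL1, the activators that switch on Per and Cry genes through E-box sequences. PER2 also binds nuclear receptors, among them REV-ERBα and PPARα, and so reaches genes of metabolism. RORα, the product of Rora, drives transcription of the BMAL1 gene Arntl from the opposite side of the REV-ERB loop. In muscle the clock is known for its part in the daily change between glucose and fatty acid use around the onset of activity and rest, a switch in which the kinase encoded by Pdk4 takes part.

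The tables used hold the authors' comparisons and no value per library, so group levels, the depth of each library and the spread between mice are unknown here. Each PER2 value is a log2 fold change whose direction neither file nor labels state. It is therefore called positive or negative, never higher or lower in the knockout. Genes with an authors' adjusted p (FDR) under 0.05 were called. The error given after a ± is derived from the authors' likelihood ratio score. It stands in for a standard error and could not be checked against values per library. Levels are the authors' mean log2 CPM (read counts scaled to library size), which is the same in all 6 PER2 tables and so is no ZT0 level. Of 12 genes that define skeletal muscle, such as the actin gene Acta1 and myoglobin, Mb, all 12 were measured, at 10.3 to 16.1 mean log2 CPM, and 0 were called at ZT0 by the authors' test, nor had any an unadjusted p under 0.05 there, as 1521 of all 12952 genes (11.7%) had.

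Per2, the targeted gene, was not called at ZT0. In the authors' deposited tables it stood at -0.16 ± 0.23 at ZT0 (adjusted p 0.866), and 0.46 (ZT4), 0.51 (ZT8), 0.70 (ZT12), 0.38 (ZT16) and 0.31 (ZT20). ZT0 was the only time with a negative value. The difference of ZT0 from the other 5 ZT was -0.63, with an unadjusted p of 0.012 and an adjusted p of 0.52, so it did not pass the threshold. A gene-level value can hold transcripts that lack a deleted exon, so it does not check the labels or settle the direction of the tables. Per2 lies on chromosome 1, where 28 of 722 measured genes were called at ZT0, beside 2.7% of all genes.

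The ZT0 table held a moderate set of changes, split evenly by sign. The authors' deposited FDR called 350 of 12952 genes (2.7%), of which 172 (1.33%) were positive and 178 (1.37%) negative. The share called was 12.2% (ZT4), 1.78% (ZT8), 3.34% (ZT12), 0.811% (ZT16) and 1.52% (ZT20). ZT0 thus had the third largest count, after ZT4 with 1586 and ZT12 with 432 genes. The median size of a called log2 fold change at ZT0 was 0.64. In all, 85 called genes had a size of at least 1 (43 positive and 42 negative), and 109 had a size under 0.5.

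Most genes called at ZT0 were called at another ZT as well, always with the same sign. Of the 350, 219 were called at 1 or more other ZT, with 0 disagreements in sign. ZT0 shared 163 calls with ZT4 (46.6% of the ZT0 calls and 10.3% of the ZT4 calls), 119 with ZT8 (34.0% and 51.7%), 134 with ZT12 (38.3% and 31.0%), 67 with ZT16 (19.1% and 63.8%) and 124 with ZT20 (35.4% and 62.9%). The 6 comparisons have separate mice at each ZT, but their tables carry 1 shared mean level per gene. Across all genes, which are not independent replicates, Spearman's rho of the ZT0 fold changes was 0.43 with ZT8, 0.37 with ZT20, 0.26 with ZT16, 0.09 with ZT12 and 0.0001 with ZT4.

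The low likeness of ZT0 to ZT4 and ZT12 went together with transcript length. At ZT0 the fold change had a rho of -0.23 with transcript length, against 0.50 at ZT4 and 0.43 at ZT12. A smooth trend fitted on length and GC content explained 4.82% of the variance at ZT0, 30.5% at ZT4 and 29.4% at ZT12. With that trend removed, rho of ZT0 became 0.15 with ZT4 and 0.25 with ZT12. Its part in single ZT0 calls was small: 346 genes were called without the trend, and 312 of them were among the 350.

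**Figure D1:**
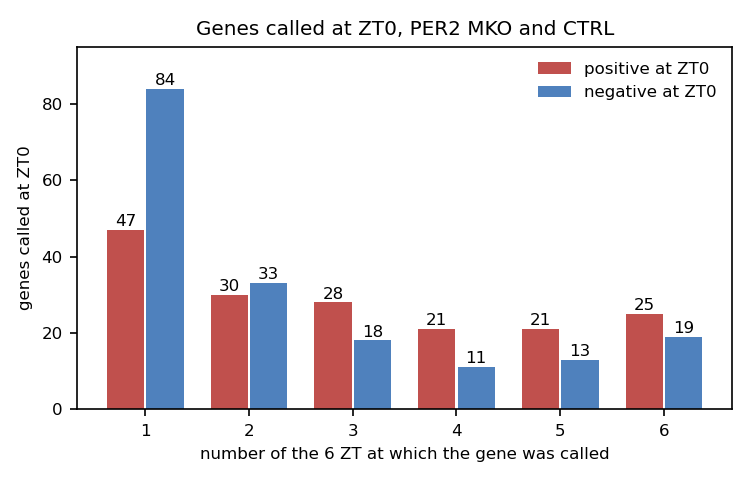
Number of genes called at ZT0 in PER2 MKO against PER2 CTRL (y axis), by the number of the 6 ZT at which each was called (x axis), with positive values in red and negative values in blue. At 1 ZT, which is ZT0 alone, 47 genes were positive and 84 negative, while 25 positive and 19 negative genes were called at all 6.

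A total of 5 genes had a ZT0 value that differed from the other 5 ZT in the test of the difference itself. Among them were Pdk4 and Slc25a22, whose ZT0 values were positive, and Adra1a and Arrdc3, whose values were negative. The test set the ZT0 value against the inverse-variance mean of the other 5 ZT, with Benjamini-Hochberg adjustment over all 12952 genes. It passed 5 genes (0.0386%), while 1015 genes (7.84%) had an unadjusted p under 0.05, 500 in the positive and 515 in the negative direction. Taking the spread between the other ZT as the error in limma in place of the derived errors, 0 genes passed and 751 had an unadjusted p under 0.05.

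Pdk4 encodes pyruvate dehydrogenase kinase 4, which shuts off the entry of pyruvate into the citric acid cycle and is induced in fasted muscle. In the authors' deposited tables it stood at 1.66 ± 0.42 at ZT0 (adjusted p 0.0061), -1.13 ± 0.43 (ZT4), -1.17 ± 0.43 (ZT8), -0.36 ± 0.42 (ZT12), -0.05 ± 0.42 (ZT16) and -0.67 ± 0.39 (ZT20). ZT0 was thus the only positive value of 6, and the only one called. The difference of ZT0 from the other 5 ZT was 2.33 ± 0.46 (adjusted p 0.0056). It passed without each other ZT in turn, and with the length trend removed. Its level over all libraries was 8.95 mean log2 CPM. The bases before and around its start are shown because Pdk4 had the smallest adjusted p of the difference (RefSeq on GRCm38.p6, chr6:5496229-5496528, minus strand, 250 bases before to 50 after the start). None of the 3 clock motifs searched for was in them.
Pdk4: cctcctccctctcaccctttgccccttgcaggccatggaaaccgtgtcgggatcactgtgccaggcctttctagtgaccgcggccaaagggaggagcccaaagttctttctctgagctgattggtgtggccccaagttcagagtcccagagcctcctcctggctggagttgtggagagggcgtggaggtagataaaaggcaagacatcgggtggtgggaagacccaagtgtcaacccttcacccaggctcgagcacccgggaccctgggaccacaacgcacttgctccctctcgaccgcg

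Slc25a22 encodes a glutamate carrier of the inner mitochondrial membrane. It stood 0.48 ± 0.15 (ZT0), -0.18 (ZT4), -0.53 (ZT8), -0.22 (ZT12), -0.12 (ZT16) and -0.19 (ZT20) in the authors' deposited tables. Here too ZT0 was the only positive value, though the ZT0 value by itself did not pass (adjusted p 0.056) and ZT8 was called. The difference was 0.73 ± 0.17 (adjusted p 0.031), and it was lost without ZT8 (0.66, adjusted p 0.196).

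Adra1a encodes the α1A-adrenergic receptor for noradrenaline and adrenaline. Its deposited value at ZT0 was -0.79 ± 0.15 (adjusted p 1.3e-05), with -0.18 (ZT4), -0.30 (ZT8), 0.20 (ZT12), 0.35 (ZT16) and -0.29 (ZT20). The difference was -0.74 ± 0.16 (adjusted p 0.018). This call did not hold without ZT12 (-0.69, adjusted p 0.062), without ZT16 (-0.64, adjusted p 0.136) or without ZT4 and ZT12 together (-0.71, adjusted p 0.0612). Arrdc3 encodes an α-arrestin that takes part in the uptake of β-adrenergic receptors from the membrane. It had -0.63 ± 0.16 at ZT0 (adjusted p 0.0066), and 0.13 (ZT4), 0.07 (ZT8), 0.00 (ZT12), 0.42 (ZT16) and 0.23 (ZT20). The other 5 values lay between -0.0037 and 0.42, and the difference was -0.80 ± 0.18 (adjusted p 0.018). The call was lost without ZT16 (-0.74, adjusted p 0.136).

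**Figure D2:**
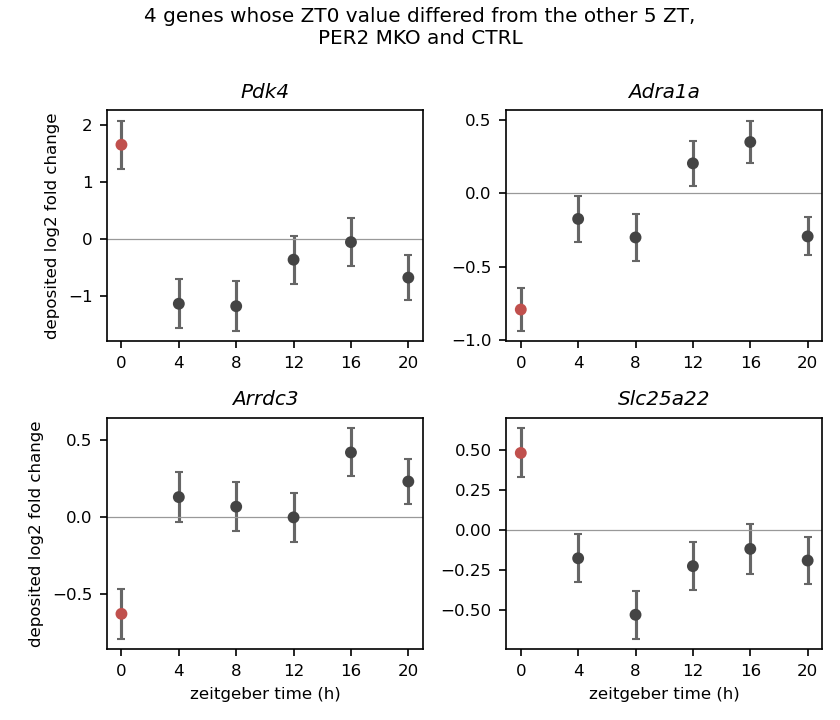
Deposited log2 fold change of PER2 MKO and PER2 CTRL (y axis, direction not stated) at each zeitgeber time in hours (x axis) for 4 genes past the test of the difference, with the derived error as bars and ZT0 in red. ZT0 stands apart as the highest value for Pdk4 (1.66) and Slc25a22 (0.48), and as the lowest for Adra1a (-0.79) and Arrdc3 (-0.63).

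Just outside the threshold stood Gadd45g and Il1r1. Gadd45g, a stress-response gene of the growth arrest and DNA damage family, had 1.68 ± 0.29 at ZT0 (adjusted p 1.2e-06), with 0.19 (ZT4), 1.05 (ZT8), 0.16 (ZT12), 0.22 (ZT16) and 0.33 (ZT20) in the authors' deposited tables. The calls were at ZT0 and ZT8, and the difference was 1.29 ± 0.31 (adjusted p 0.062). Il1r1, the receptor for interleukin-1, had 1.42 ± 0.20 at ZT0 and between 0.17 and 0.74 elsewhere, with a difference of 0.92 ± 0.22 (adjusted p 0.062). With the length trend removed its adjusted p was 0.022. Gadd45b, a relative of Gadd45g that is outside the rule for named genes and was picked after its values were seen, had -0.91 ± 0.27 at ZT0 (adjusted p 0.031). The promoter of Gadd45g is shown because it holds an E-box, the capital letters, which starts at position -142 relative to the start of the gene (RefSeq on GRCm38.p6, chr13:51846425-51846724, plus strand).
Gadd45g: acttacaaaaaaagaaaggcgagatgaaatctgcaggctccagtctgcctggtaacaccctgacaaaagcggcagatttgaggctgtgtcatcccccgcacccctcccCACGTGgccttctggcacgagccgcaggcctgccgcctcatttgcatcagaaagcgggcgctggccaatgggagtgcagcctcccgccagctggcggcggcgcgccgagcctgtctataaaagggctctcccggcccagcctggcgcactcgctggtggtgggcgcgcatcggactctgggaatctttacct

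Clock motifs stood in like shares of the promoters of ZT0 calls and of all genes. A RefSeq promoter window of 300 bases was at hand for 248 of the 350 called genes and for 9417 of the 12952 genes tested. The E-box CACGTG was in 10.1% of the windows of called genes and in 10.4% of those of all genes. The core of the ROR element, AGGTCA on either strand, was in 11.3% and 12.2%, and the D-box TTATGNAA on either strand in 1.61% and 1.87%. Different motifs could share letters at their ends only. These are counts of letters and do not show binding.

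Genes called at ZT0 and at no other ZT were 131 of the 350, 1.01% of all genes tested and 37.4% of the ZT0 calls. The same share was 75.3% (ZT4), 21.3% (ZT8), 23.1% (ZT12), 15.2% (ZT16) and 14.2% (ZT20). Of the 131, 63 had 1 sign at all 6 ZT, and the median size of 0.54 at ZT0 stood beside a median of 0.14 for the mean of the other 5 ZT in the ZT0 direction. The test of the difference passed 4 of the 131. The genes were picked for their ZT0 values, so a larger size at ZT0 is fixed by that choice. Requiring an unadjusted p over 0.05 at each other ZT left 42 of them.

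Among the 131, the smallest ZT0 adjusted p after Adra1a belonged to Zdhhc24, a palmitoyltransferase gene (-1.11 ± 0.21, adjusted p 2.3e-05). Its values at the other ZT were all negative and lay between -0.46 and -0.25. Next were the predicted transcript Gm26885 (-0.99), Klhl2, a substrate adaptor of a ubiquitin ligase (0.68), and the cytochrome P450 gene Cyp2d22 (-0.54). Sept11, of the septin cytoskeleton (-0.48), and Rcan2, a regulator of the phosphatase calcineurin (0.67 ± 0.14), were also among the 8 smallest. Adra1a passed the test of the difference, and the others named here did not. Zdhhc24 had a difference of -0.76 (unadjusted p 0.00076, adjusted p 0.36) and Rcan2 one of 0.48 (unadjusted p 0.0014, adjusted p 0.37).

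**Figure D3:**
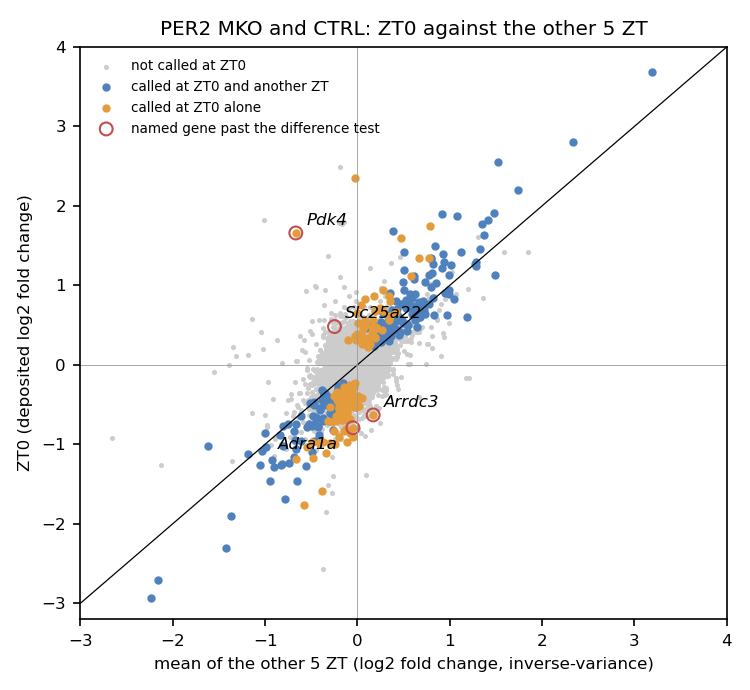
Deposited log2 fold change at ZT0 (y axis) against the inverse-variance mean of the other 5 ZT (x axis), 1 point per gene, with the line of equal values in black. Genes called at ZT0 and another ZT (blue) run along the line, and genes called at ZT0 alone (orange) lie near 0 on the x axis. Genes beyond the axes, among them Dpp10, Capn11 and 13 predicted transcripts, are not drawn.

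A further 44 genes were called at ZT0 and at each of the other 5 ZT, 25 positive and 19 negative. Slc4a10, a sodium bicarbonate transporter, had 3.69 ± 0.39 at ZT0 and between 2.21 and 3.47 at the other ZT, at a mean of -0.36 log2 CPM. The predicted gene Gm13490 (2.80), the zinc transporter gene Slc30a2 (1.88 ± 0.24), the amylase gene Amy1 (1.42 ± 0.17) and the cyclic AMP phosphodiesterase gene Pde7a (1.22 ± 0.16) were positive too. Dpp10, which encodes a partner of potassium channels, had 6.68 ± 1.03 at a mean of -1.38 log2 CPM. So large a fitted value depends on the small count added in the fit, and it gives no bound on the fold. Slc30a2 stood at 0.91 to 1.23 at the other ZT, with a difference of 0.80 that did not pass (unadjusted p 0.0023, adjusted p 0.38). The negative ones with a gene name included Pla2g5, a secreted phospholipase (-2.71 ± 0.38), and Mcm6, a subunit of the replication helicase (-1.03 ± 0.29). Among all 44 the smallest adjusted p of the difference from the other ZT was 0.357.

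Of the 19 negative genes called at all 6 ZT, 13 were predicted transcripts with values far below all others. Their ZT0 values ran from -12.20 for Gm10801 to -7.03 for Gm10720. The median was -10.4 (ZT0), -8.86 (ZT4), -9.17 (ZT8), -8.63 (ZT12), -9.72 (ZT16) and -9.55 (ZT20). ZT0 was the most negative time for 12 of the 13, but no difference from the other ZT passed, the smallest adjusted p being 0.357. Together their mean level over all libraries came to 151.5 CPM. By GENCODE M21, 10 lie on chromosome 9, 2 on chromosome 2 and 1 on chromosome 14.

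The 13 transcripts share sequence, so how reads were split among them is uncertain. In each, between 34.3% and 89.3% of its runs of 31 bases were in at least 1 of the others, on either strand. Their longest annotated transcripts have up to 1170 bases. The longest run found in 12 of the 13 (absent from Gm10715) is 41 bases and is shown because so many of them hold it. The run resembles the mouse major satellite, the tandem repeat of pericentromeric DNA, which is background knowledge that was not checked against a repeat annotation. Group levels are not given, and so large a fitted value is no bound, so no fold is stated. Of the 13, only Gm10800 was in the RORA ZT0 table, where it stood at 7.08 ± 0.68 in RORA MKO against RORA CTRL (adjusted p 8.4e-25).
shared run: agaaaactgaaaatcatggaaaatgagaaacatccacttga

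Outside these sets, and among named genes of at least 0 mean log2 CPM, the largest ZT0 values belonged to genes of several kinds and most were called at other ZT too. The positive ones included Cd28, the costimulatory receptor of T cells (2.2 ± 0.36, adjusted p 3.6e-07), Otog, which encodes the inner ear matrix protein otogelin (1.91 ± 0.45), and Npnt, the matrix protein nephronectin (1.83 ± 0.28). Syt9, a synaptotagmin (1.78), the transporter gene Slc15a5 (1.74 ± 0.38) and Tmem132b (1.59) came after Slc30a2 and before or near Gadd45g and Pdk4. Slc15a5 and Tmem132b were called at ZT0 alone. Their values elsewhere were 0.40 to 1.10 for Slc15a5 and -0.36 to 1.14 for Tmem132b.

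The most negative called genes at ZT0 of at least 0 mean log2 CPM, predicted names left out, were, after Pla2g5, the cytochrome P450 gene Cyp4f39 (-2.31 ± 0.53), Abcc8, the sulfonylurea receptor (-1.47 ± 0.37), and Car3, the carbonic anhydrase abundant in slow muscle (-1.47 ± 0.18, adjusted p 1.8e-13). Then came Stc2, a secreted stanniocalcin (-1.27), Mybph, a myosin-binding protein (-1.26), and Ppp1r1a, an inhibitor of protein phosphatase 1 (-1.26 ± 0.21). The adenosine receptor gene Adora1 (-1.25), Golga7b (-1.24) and Lrtm1 (-1.20) completed the list. Car3 was negative at all 6 ZT, -1.23 (ZT4), -1.0 (ZT8), -0.87 (ZT12), -0.43 (ZT16) and -1.18 (ZT20), and ZT0 was its lowest value. Its difference of -0.52 had an unadjusted p of 0.0074 and an adjusted p of 0.45.

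The core clock genes showed no called change at ZT0. Of 28 measured genes in the lists of clock activators, repressors and outputs, only Pdk4, which is in the list of outputs, was called. The count of called clock genes was 6 (ZT4), 1 (ZT8), 5 (ZT12), 0 (ZT16) and 2 (ZT20) in the other tables. At ZT0, 7 of the 28 had an unadjusted p under 0.05, beside 11.7% of all genes, and the 1 call of 28 stands beside 2.7%. Arntl, the BMAL1 gene, stood at -0.06 ± 0.17 at ZT0, beside 0.49 at ZT4 and -0.34 at ZT12. Clock had 0.06, Cry1 0.10, Nr1d1, the REV-ERBα gene, 0.20 ± 0.18, and the output factor gene Dbp -0.16 ± 0.23. The repressor Per3 had the value nearest to a call, -0.56 ± 0.19 (adjusted p 0.10). For 7 of the 28 the difference from the other ZT had an unadjusted p under 0.05, beside 7.84% of all genes. Among them were Hlf, a PAR bZIP output factor (-0.16 at ZT0 against 0.26 elsewhere, unadjusted p 0.0018, adjusted p 0.38), and Cry2 (-0.29 against 0.03, adjusted p 0.58).

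Of 501 genes in 32 pathway lists, 20 were called at ZT0 (3.99%, beside 2.7% of all genes), 11 positive and 9 negative, and their median was 0.02, beside 0.00 over all genes. In 19 of the 32 lists no gene was called. Polyamine metabolism had the most calls: 5 of 11 measured genes were positive, 0 negative and 6 did not pass. Odc1, ornithine decarboxylase and the entry step of polyamine synthesis, stood at 1.40 ± 0.24 (adjusted p 1.4e-06). Smox, the spermine oxidase, had 0.95 ± 0.23, Amd1, S-adenosylmethionine decarboxylase, 0.67 ± 0.17, and Sms, spermine synthase, 0.43 ± 0.13. Amd2 (0.66) is a near copy of Amd1, so reads could be split between them. Spermidine synthase, Srm, did not pass (0.08 ± 0.17).

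The polyamine values were not shown to be particular to ZT0. Odc1 had 0.88 (ZT4), 0.94 (ZT8), 1.36 (ZT12), 0.29 (ZT16) and 1.15 (ZT20), and its difference of 0.47 did not pass (unadjusted p 0.073, adjusted p 0.66). Smox had 0.21, 0.76, 0.59, 0.03 and 0.88 at the same times. The count of positive polyamine genes was 4 (ZT4), 2 (ZT8), 4 (ZT12), 0 (ZT16) and 2 (ZT20), with 1 negative at ZT4. The list median was 0.25 at ZT0, and between 0.06 and 0.41 at the other ZT.

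Genes of branched-chain amino acid breakdown held negative calls only, and those of the atrophy program held calls of both signs. Of 17 genes of branched-chain amino acid breakdown, 3 were called negative and 0 positive, beside 1.37% negative and 1.33% positive of all genes. The list median was -0.09 at ZT0, and -0.15 (ZT4), -0.18 (ZT8), -0.16 (ZT12), -0.02 (ZT16) and -0.07 (ZT20). The 3 called genes were Klf15, a glucocorticoid-induced factor that activates this pathway (-0.57 ± 0.15, adjusted p 0.012), Ivd, isovaleryl-CoA dehydrogenase (-0.32 ± 0.09), and Mccc2, of methylcrotonyl-CoA carboxylase (-0.29 ± 0.09). Ivd and Mccc2 were called at ZT4 too (-0.26 and -0.33). Klf15 was called at ZT0 alone, with -0.08 (ZT4), 0.02 (ZT8), -0.35 (ZT12), 0.12 (ZT16) and -0.24 (ZT20) (difference -0.46, unadjusted p 0.0055, adjusted p 0.43). Of 16 atrophy and FOXO genes, 2 were called positive and 1 negative, which is Klf15. The positive ones were Gadd45g and Mstn, the myostatin gene (0.53 ± 0.14, adjusted p 0.0096). Mstn was also called at ZT4 (0.73) and ZT12 (0.76). The ubiquitin ligase genes Trim63 (0.17) and Fbxo32 (-0.10), which are outside the rule and were picked for their role in atrophy, did not pass. Of 17 glucocorticoid-responsive genes, Pdk4 and Gadd45g were called positive and Klf15 negative. Over all genes 2.7% were called.

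Single calls fell in other metabolic and neuromuscular lists. Plin3, a coat protein of lipid droplets, stood at -1.02 ± 0.21 (adjusted p 0.00025). It was called at 4 of the 6 ZT, with -1.26 at ZT4 and -1.04 at ZT12. Scd2, a stearoyl-CoA desaturase, had -0.77 ± 0.23 (adjusted p 0.043, and 0.077 with the length trend removed) and was called at 2 ZT. Ppp1r3b, which targets a phosphatase to glycogen, had -0.95 ± 0.25 and was called at 2 ZT. Gpx3, the secreted glutathione peroxidase, had -0.77 ± 0.16 and was called at 5 of the 6 ZT, with -1.08 at ZT4 and -1.19 at ZT12. Pcx, pyruvate carboxylase, had 0.44 ± 0.12 and was called at 4 of the 6 ZT. Of 16 genes of the neuromuscular junction and denervation, 1 was called positive and 1 negative, beside calls for 2.7% of all genes. Musk, the receptor kinase that organizes the junction, had 1.45 ± 0.23 and was called at all 6 ZT. Ncam1, a neural cell adhesion molecule that returns in denervated fibres, had -0.83 ± 0.20 (adjusted p 0.0045) and was called at ZT0 alone. Its other values were 0.43 (ZT4), -0.05 (ZT8), -0.27 (ZT12), -0.45 (ZT16) and -0.36 (ZT20) (difference -0.68, unadjusted p 0.0022, adjusted p 0.38).

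Sterol synthesis genes were mostly of negative sign at ZT0 without a call at this time. Of 15 measured, 14 had a negative sign, 0 were called and 3 had an unadjusted p under 0.05, beside 11.7% of all genes. Their median was -0.18 at ZT0, beside 0.12 (ZT4), 0.09 (ZT8), -0.14 (ZT12), -0.002 (ZT16) and 0.03 (ZT20). Idi1, an isomerase of the mevalonate pathway, stood at -0.28 ± 0.11 at ZT0 (adjusted p 0.18). Of 17 immediate early genes, 0 were called and 0 had an unadjusted p under 0.05. The nuclear receptor gene Nr4a3 had the smallest adjusted p among them (1.28 ± 0.66, adjusted p 0.44), and it stood at 3.15 at ZT8. Of 14 cell cycle genes, Tpx2, which builds the mitotic spindle, was called positive (1.13 ± 0.27) and Mcm6 negative, beside calls for 2.7% of all genes. Both were called at all 6 ZT.

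Genes of oxidative metabolism lay above their values at the other ZT, by small amounts that were not called. Of 26 nuclear genes of oxidative phosphorylation, 24 had a positive sign at ZT0. There 0 were called, beside 2.7% of all genes, and 2 had an unadjusted p under 0.05, beside 11.7%. The median was 0.12, beside -0.42 (ZT4), -0.07 (ZT8), -0.31 (ZT12), -0.06 (ZT16) and -0.04 (ZT20). All 26 stood above the mean of their other 5 ZT, as did 6601 of all 12952 genes. The difference had an unadjusted p under 0.05 for 12 of the 26, beside 7.84% of all genes, and passed for 0. With the length trend removed, 2 of the 26 had an unadjusted p under 0.05.

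A like position was found in some other lists, in energy use and outside it, and was absent from others. Of 15 tricarboxylic acid cycle genes, 12 stood above the mean of the other ZT, beside 6601 of all 12952 genes. The median of 22 fatty acid oxidation genes was 0.05 at ZT0, beside -0.27 (ZT4), -0.22 (ZT8), -0.19 (ZT12), -0.06 (ZT16) and -0.04 (ZT20). At ZT0 0 of the 22 were called, beside 2.7% of all genes, and 2 had an unadjusted p under 0.05, beside 11.7%. All 22 stood above the mean of the other ZT. The difference had an unadjusted p under 0.05 for 6 of them, beside 7.84% of all genes. With the length trend removed it had one for 6 too. Ucp3, a mitochondrial uncoupling protein of muscle, had 0.80 ± 0.26 at ZT0 (adjusted p 0.074), against -0.49 (ZT4), -0.68 (ZT8), -0.04 (ZT12), -0.22 (ZT16) and 0.13 (ZT20). Its difference of 1.05 did not pass (unadjusted p 0.0003, adjusted p 0.29). The median of 17 glycolytic genes was 0.08 at ZT0, near that at ZT8 (0.07) and ZT20 (0.03), and -0.28 at ZT4. Of the 17, 16 stood above the mean of the other ZT. The difference had an unadjusted p under 0.05 for 2 of the 17, with and without the length trend. Lists without this position included glycogen metabolism, where 3 of 14 genes stood above the mean of the other ZT. Others were fatty acid synthesis (2 of 12), sterol synthesis (3 of 15) and excitation-contraction coupling (3 of 16). Outside energy use, 23 of 25 cytosolic ribosomal protein genes stood above the mean of the other ZT. Their median was 0.06 at ZT0, 0.03 at ZT16 and -0.40 at ZT4. Of the 25, 0 had an unadjusted p of the difference under 0.05.

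**Figure D4:**
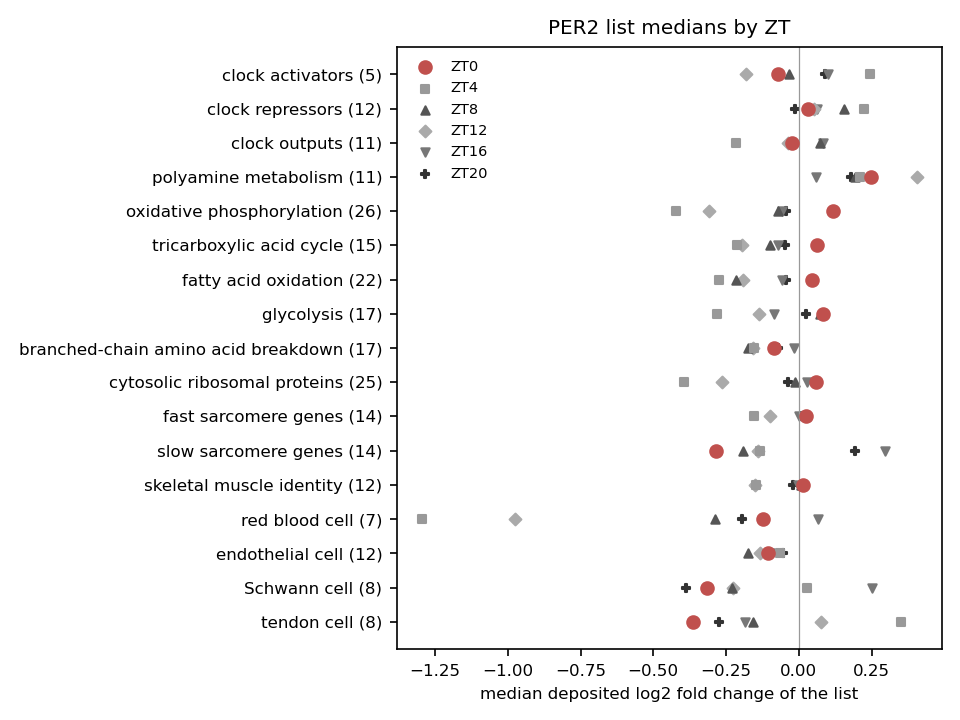
Median deposited log2 fold change of PER2 MKO and PER2 CTRL (x axis) for 17 gene lists (y axis, with the number of genes measured), 1 marker per ZT and ZT0 in red. The ZT0 median of oxidative phosphorylation (0.12) lies right of its 5 other medians. So do those of glycolysis (0.08), tricarboxylic acid cycle (0.06), cytosolic ribosomal proteins (0.06), fatty acid oxidation (0.05), fast sarcomere genes (0.03) and skeletal muscle identity (0.02). The red blood cell genes lie far left at ZT4 (-1.30) and ZT12 (-0.98) but not at ZT0 (-0.12).

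Sarcomere genes and markers of other cells gave almost no calls at ZT0. Of 14 fast and 14 slow sarcomere genes 0 were called, with medians of 0.03 and -0.29. An unadjusted p under 0.05 was found for 1 fast and 0 slow genes, beside 11.7% of all genes. Myh7, the slow myosin heavy chain, had -0.56 ± 0.35 (adjusted p 0.57), and 0.47 at ZT20. Of 95 measured markers of 14 other cell types, 1 was called (1.05%, beside 2.7% of all genes). That gene was Cd28, the only 1 of the 12 T and NK cell markers listed that the table held. The median of 7 red blood cell genes was -0.12, that of 12 endothelial genes -0.10 and that of 7 white adipocyte genes 0.21. It was -0.32 for 8 Schwann cell genes and -0.36 for 8 tendon genes. All 8 Schwann cell, all 8 tendon and all 7 red blood cell genes had a negative sign. Of the Schwann cell genes 1 stood above the mean of the other ZT, of the tendon genes 0 and of the red blood cell genes all 7. Ighm, the immunoglobulin mu chain of B cells, had -1.21 ± 0.62 and was not called (adjusted p 0.43). Of 11 macrophage markers measured, such as Lyz2, 0 were called and 0 had an unadjusted p under 0.05, and their values lay between -0.20 and 0.33 with a median of 0.14. In bulk tissue fewer cells of a type and less RNA per cell cannot be told apart.

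Genes called at ZT0 in the PER2 table were often called at ZT0 in the RORA table as well, mostly with the opposite sign. The RORA table gives RORA MKO over RORA CTRL, called 28.1% of its 14253 genes, and shares no libraries with the PER2 table. Rora, the gene targeted there, stood at -1.83 in RORA MKO against RORA CTRL and at -0.07 ± 0.12 in the PER2 table. Of 11425 genes in both tables, 301 were called in PER2, and 207 of those (68.8%) were called in RORA too, beside 30.9% of all shared genes. They made up 5.87% of the RORA calls. Of the 207, 176 (85.0%) had opposite signs and 31 the same sign, while 56.1% of all shared genes and 53.0% of those called in neither table had opposite signs.

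Since the direction of the PER2 table is not stated, opposite signs may stand for changes in the same or in opposite directions in the 2 knockouts. Spearman's rho was -0.20 over the shared genes and -0.64 over the 207, as a description across genes. Of the 176 with opposite signs, 105 were positive in PER2, and of the 31 with the same sign, 12 were. The share of opposite signs was not particular to ZT0. The PER2 calls at the other ZT, set beside the same RORA ZT0 table, had opposite signs in 84.2% (ZT4) to 91.3% (ZT16).

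Named genes show both patterns. Odc1 had 1.40 in PER2 and -1.44 in RORA MKO, Gadd45g 1.68 and -1.40, Npnt 1.83 and -1.75, Slc4a10 3.69 and -3.48, Musk 1.45 and -0.73, and Car3 -1.47 and 0.84. The same sign was found for Pla2g5 (-2.71 in PER2, -2.13 in RORA MKO), Cyp4f39 (-2.31 and -1.38) and Adra1a (-0.79 and -0.92). Of the 4 named genes whose ZT0 value differed from the other ZT, Adra1a was called in the RORA table. Pdk4 stood there at 0.03 ± 0.12 (adjusted p 0.80), Arrdc3 at -0.09 ± 0.08 and Slc25a22 at -0.02 ± 0.09. Of the 131 genes called at ZT0 alone, 119 were among the shared genes. Of these 119, 60 were called in RORA, 46 of them with opposite signs. Of the 44 genes called at all 6 ZT, 28 were shared. Of these 28, 26 were called in RORA, 23 of them with opposite signs. Over all shared genes 30.9% were called in RORA.

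**Figure D5:**
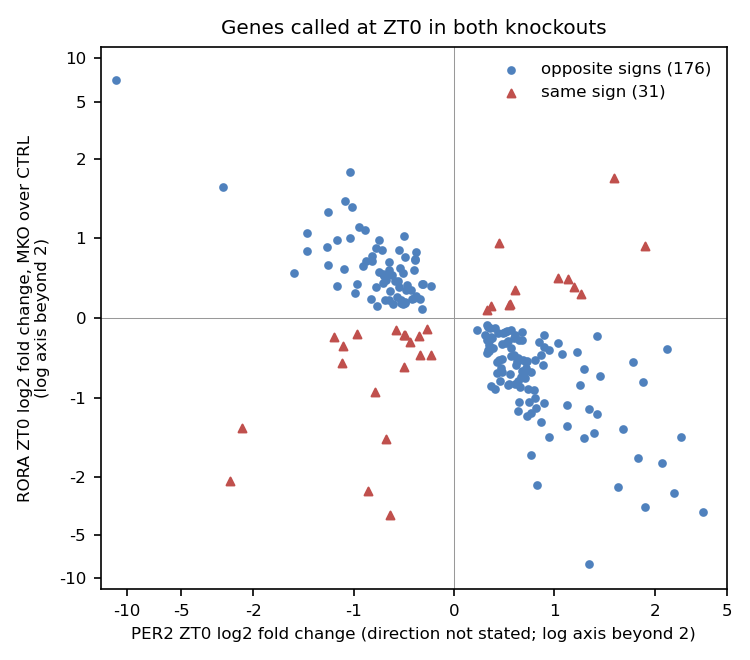
RORA MKO over RORA CTRL log2 fold change at ZT0 (y axis) against the PER2 log2 fold change at ZT0, direction not stated (x axis), for the 207 genes called in both tables, with log axes beyond 2. The 176 genes with opposite signs (blue) fill the upper left and lower right, and the 31 with the same sign (red triangles) the upper right and lower left.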

How the data were processed

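Muscle RNA was sequenced from poly-A libraries (TruSeq Stranded mRNA, NextSeq 500, per the labels). The tools in the submitters' processing notes are STAR, DESeq2, Trimmomatic, bcl2fastq 2.20.0.422, R 4.1 and MultiQC. Those notes list 2 builds, mm9 and GRCm39, without saying what each was for. How reads were counted, and whether by strand, is not given in the sources used here, so antisense and overlapping genes are uncertain. The authors deposited 1 PER2 table per ZT whose columns, per the file headers, are the log2 fold change, the mean level in log2 CPM, the score of a likelihood ratio test, its p-value and the adjusted p. The deposited RORA table adds an error and a signal column of mean normalized counts, after a filter of 10 reads in 3 samples, per the labels. No values per library were used, so depth is unknown and no interval from counts is given.

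Recomputed Benjamini-Hochberg values equalled the deposited PER2 adjusted p (largest difference 6.7e-15). The PER2 error was the absolute log2 fold change divided by the square root of the score. The ZT0 difference was tested with a two-sided normal p against the inverse-variance mean of the other 5 ZT, adjusted over 12952 genes. The test was tried first on data simulated with normal noise of the same derived errors. That trial could not check whether those errors fit the real data. As the tables hold comparisons, no count test could be run. Transcript length and GC content came from GENCODE M21, another build than those noted, which matched 12333 symbols (95.2%). Promoters came from RefSeq (GRCm38.p6). Python 3.11.15, NumPy 2.4.6, pandas 2.3.3, SciPy 1.17.1, matplotlib 3.10.9 and limma 3.58.1 (R 4.3.3) were used. Alternatives changed the threshold, the level filter, the centring, the trend, the ZT left out and the error.

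The genes and lists were chosen with earlier results of these data known. Named genes were Per2 and the clock lists, the 10 highest and 10 lowest called ZT0 values (at least 0 mean log2 CPM, predicted names left out), 6 per sign called at all 6 ZT, those past the difference test, the 8 smallest adjusted p called at ZT0 alone, and up to 3 called members per list. Some genes that this rule names are not reported here.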

Additional observations from a re-analysis of the deposited data

Results flagged for a closer look

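The ZT0 value of Pdk4, Slc25a22, Adra1a and Arrdc3 differed from their other 5 ZT in the test of the difference. The difference was 2.33 for Pdk4 and 0.73 for Slc25a22, each positive at ZT0, and -0.74 for Adra1a and -0.80 for Arrdc3, each negative at ZT0. All are on the log2 scale of the authors' deposited tables, whose direction is not stated. Each ZT has its own mice, so time of day cannot be told apart from the mice sampled at ZT0. Of these 4, the value of Pdk4 alone passed without each other ZT in turn.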

How the results depend on the processing

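No paired analysis was possible because the tables used hold comparisons with no values per library, and for the same reason no replicate could be left out. The 350 genes called at ZT0 became 191 at an adjusted p under 0.01, and stayed between 241 and 351 under the level filter, the size minimum, the centring and the length trend. The count of genes that differed from the other ZT, 5, became 2 without ZT16, 1 at an adjusted p under 0.01 and 0 in limma, whose smallest adjusted p was 0.697. It was 4 to 7 under the other settings tried. The 131 genes called at ZT0 alone became 42 when each other ZT needed an unadjusted p over 0.05, and 41 at an adjusted p under 0.01 at ZT0. With the length trend removed, rho of ZT0 became 0.15 with ZT4 and 0.25 with ZT12. Of 114 named genes, 112 kept their side of the threshold at ZT0 with the trend removed, Slc25a22 came past it (adjusted p 0.031) and Scd2 was lost (0.077). Without the 13 repeat transcripts, an alternative added after seeing the data, Pearson's r of ZT0 fell to 0.22 with ZT4, against 0.59 with them, and to 0.52 with ZT20, against 0.82. The medians of the 47 lists moved by less than the median error of their members, which is a wide limit. For oxidative phosphorylation that error was 0.15 and the median 0.12, so a move to 0 would have stayed within it. With the length trend removed, the median of cytosolic ribosomal proteins went from 0.06 to 0.004 and that of the proteasome from 0.02 to -0.01. Among the 114 named genes, no value called at ZT0 changed its sign. Spearman's rho across genes of ZT0 with ZT4, 0.0001 over all genes, was -0.02 over genes of at least 1 log2 CPM. The cause of these changes was not tested.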
